A study of Homo sapiens with 8 samples.

Results

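The genes described here are 9 genes that define the thyroid follicular cell: the transcription factors NKX2-1, PAX8, FOXE1 and HHEX, the thyrotropin receptor TSHR, the iodide transporter SLC5A5, thyroglobulin TG, the oxidase DUOX2 and the type 2 deiodinase DIO2. They were found by their gene name among the non-control probes of a human expression microarray, where they carry 11 of 50599 probes and make up 9 of 36337 gene names. DIO2 has 3 probes and each of the other genes has 1. RNA of 2 human thyroid cell lines was measured on 8 single-colour arrays, in 4 groups of 2. Nthy-ori 3-1 is a non-tumour follicular line, made from normal thyroid cells by immortalisation, and was grown in RPMI medium. Its control cells, labelled CTL, were set against cells transfected with a synthetic precursor of miR-375 (pre-miR-375) at 5 nM. TT is a line of medullary thyroid carcinoma, the tumour of the calcitonin-producing C cells, and was grown in DMEM/F12. Its CTL cells were set against cells transfected with an inhibitor of the same microRNA (antagomiR-375) at 20 nM. The concentrations are those of the labels, and the methods of the study give higher ones. Both transfections lasted 48 h and used the same lipid reagent, and what the CTL cells received is not given in the labels. The methods of the study name a control precursor (pre-miR-CTL) for the Nthy-ori 3-1 arrays and only a CTL for the TT arrays. They list an antagomiR-CTL among the reagents transfected into TT. Each line stands for 1 tumour or 1 immortalised culture. The methods of the study call the replicates of its arrays biological, the labels say nothing on this, and neither says whether arrays came from separate cultures. Every p-value below rests on 2 arrays a group. For the transfections it uses the spread between the 2 differences of paired arrays, and between the lines the spread within the 4 groups. In limma this spread of a probe is weighed together with a spread estimated over all probes. On the transfections the weights, in degrees of freedom, were 1 for the probe and 0.99 or 1.13 for all probes. The SEs and intervals below rest on both.

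Follicular cells line the follicles of the thyroid and make thyroid hormone. NKX2-1, PAX8, FOXE1 and HHEX are all present in the thyroid bud of the embryo and keep each other's expression up in the adult gland, where they act on the promoters of the genes that make the hormone. SLC5A5 brings iodide into the cell, DUOX2 makes the hydrogen peroxide that its oxidation needs, TG is the protein on which the hormone is built, and TSHR switches the program on through cyclic AMP. DIO2 converts thyroxine into the active hormone triiodothyronine inside cells. C cells lie between the follicles and secrete calcitonin. They share NKX2-1 with the follicular cells and are not known for the other hormone-making genes.

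The microRNA that was raised or inhibited is given here with its seed, the bases 2 to 8 through which it pairs with its targets, in capitals. The sequence is that of RefSeq on GRCh38.p14, at chr2:219001648-219001669 on the minus strand.
hsa-miR-375-3p: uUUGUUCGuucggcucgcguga
The probe of TSHR is shown because the absence of a signal below rests on it alone. It has 60 bases but its ends lie at chr14:81557464-81558910 on hg19, a span of 1447 bases, so that it reads across an exon junction. The array annotation lists 2 RefSeq transcripts for it. A separate RefSeq list holds 4 for the gene. These sources were not matched, so how many of the 4 the probe reads was not determined.
TSHR probe: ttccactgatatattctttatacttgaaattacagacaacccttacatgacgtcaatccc
The promoter of DIO2 is shown because DIO2 had the largest difference of a member on pre-miR-375 among those with signal well above background on all 4 arrays of the line. The 250 bases before 1 of its RefSeq start sites, chr14:80212179-80212428 on the minus strand of GRCh38.p14, hold the cyclic AMP response element in capitals.
DIO2 promoter: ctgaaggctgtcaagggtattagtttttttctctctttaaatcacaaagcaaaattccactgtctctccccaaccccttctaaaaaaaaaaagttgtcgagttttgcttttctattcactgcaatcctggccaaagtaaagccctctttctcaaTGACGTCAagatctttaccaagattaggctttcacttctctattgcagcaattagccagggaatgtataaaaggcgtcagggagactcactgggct
The element TGACGTCA, which reads the same on both strands, lies at positions -96 to -89 from that start. It occurs in 649 of 35116 promoter windows of 300 bases, or 1.85%, and in 1 of the 10 windows held for 8 of the 9 genes. CACTCAAG, a site of the NKX2-1 kind searched on both strands, occurs in 256 windows, or 0.729%, and among the genes described here only in a window of NKX2-1, at positions 22 to 29 after the start. Both matches are descriptions of letters in these windows. TG has no window in the table.

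Signals are given as normalized log2 intensities, and a probe counts as measured on an array where the scanner software marked it as well above background. On the CTL arrays, 5 of the 9 genes were measured on both arrays of Nthy-ori 3-1 (TG, PAX8, FOXE1, HHEX and DIO2) and 6 on both arrays of TT (TG, SLC5A5, PAX8, NKX2-1, HHEX and DIO2). Between these CTL groups, NKX2-1 was thus measured in TT alone and FOXE1 in Nthy-ori 3-1 alone. TG was measured in both lines, and TSHR and DUOX2 in neither. Between 51.6% and 61.1% of all probes were measured on each array. On both CTL arrays of a line, 49.7% of all probes were measured in Nthy-ori 3-1 and 56.1% in TT. Of the 11 probes of the 9 genes, 5 and 7 were, respectively. The labels of the lines were checked against other markers. Of 11 C cell genes on the array, all 11 were measured on every TT array and 2, RET and GFRA4, on both CTL arrays of Nthy-ori 3-1. In TT CTL cells all 11 were higher than in Nthy-ori 3-1 CTL cells by limma with Benjamini-Hochberg adjustment. Of 6 epithelial genes, 5 were measured on both CTL arrays of Nthy-ori 3-1 and 6 on those of TT, with mean log2 signals of 10.81 and 10.54 against 13.29 and 13.26. The missing one was CDH1 (E-cadherin), at 2.75 and 1.91 in Nthy-ori 3-1 and 10.24 and 10.28 in TT. Of 6 mesenchymal genes, 5 were measured in Nthy-ori 3-1 and 4 in TT, with means of 12.31 and 11.83 against 5.33 and 5.64. VIM (vimentin) was at 17.26 and 17.29 against 5.08 and 6.02. At a limma adjusted p of 0.05, 3 of the epithelial genes were higher in TT CTL cells and 2, KRT7 and KRT18, lower. KRT7 was at 16.74 and 16.58 in Nthy-ori 3-1 and at 14.39 and 14.17 in TT. Of the mesenchymal genes, 5 were lower in TT and 1, CDH2, higher, at 12.61 and 12.28 against 13.33 and 13.30. Among all probes, 14.9% were higher and 15.3% lower. The labelled follicular line thus carried strong signals of most mesenchymal genes and of some keratins. Of 3 blood genes, 3 were measured on both CTL arrays of Nthy-ori 3-1 and 2, PTPRC and CD3E, on those of TT. PTPRC was at 6.19 and 6.17 against 6.79 and 7.19, and CD3E at 7.09 and 5.26 against 4.82 and 7.26. In Nthy-ori 3-1 CTL cells these lay above TG, at 4.72 and 5.02, and in TT CTL cells PTPRC lay above PAX8, at 5.09 and 5.76. Whether signals marked as measured at such levels reflect expression was not tested. The part of all these markers in the differences between the lines was not tested.

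**Figure D1:**
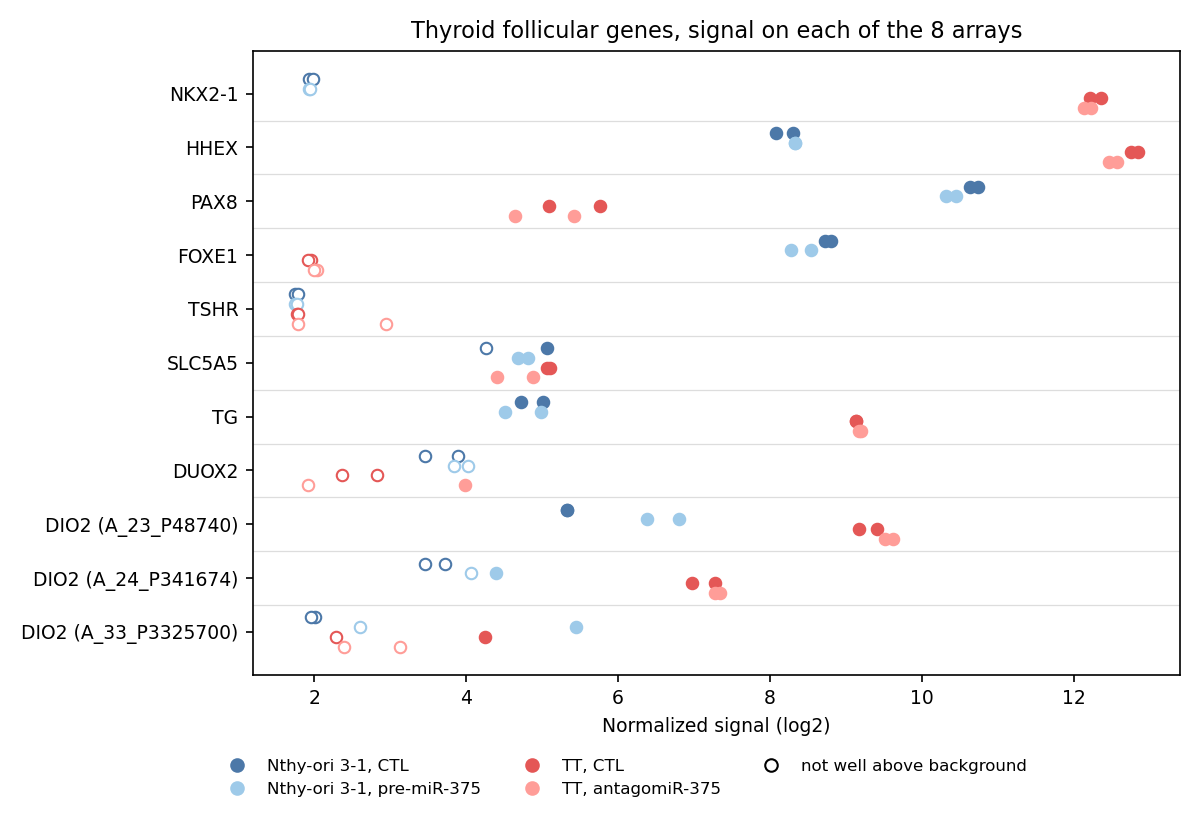
Normalized log2 signal of each of the 11 probes of the 9 genes on each of the 8 arrays, with 1 point per array, coloured by group; hollow points were not well above background. NKX2-1, HHEX, TG and the first DIO2 probe lie higher on all 4 TT arrays than on all 4 Nthy-ori 3-1 arrays, PAX8 and FOXE1 lie lower, and TSHR is hollow on all 8.

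The first comparison was between the CTL cells of the lines. NKX2-1, HHEX, TG and DIO2 were higher in TT, and PAX8 and FOXE1 were higher in Nthy-ori 3-1, so that the 4 transcription factors divided evenly between the lines. By limma on 4 groups, 6 of the 9 genes, with 7 of the 11 probes, passed an adjusted p of 0.05, 4 genes in the direction of TT and 2 in that of Nthy-ori 3-1. Among all 50582 probes tested, 30.1% passed, 14.9% in the direction of TT and 15.3% in that of Nthy-ori 3-1. The spread in this fit also draws on the transfected arrays, which share slides with the CTL arrays and are taken as independent. With the 4 CTL arrays alone, the smallest limma adjusted p over all probes was 0.00125, against 2.28e-06. The adjusted p-values below are those of the fit on 4 groups. The difference was at least 3 in size on the log2 scale for the same 7 of 11 probes, against 8.4% of all probes. The median difference over the 11 probes was 1.28, against -0.05 over all probes. Cell line, medium, slide and, in part, RNA integrity (number 8 in TT CTL and 9 in the other groups) cannot be told apart here. In these bulk samples, fewer cells of a type and less RNA per cell cannot be told apart either.

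NKX2-1 (TTF-1), which drives thyroid and lung identity, had log2 signals of 1.93 and 1.98 in Nthy-ori 3-1 CTL cells and of 12.35 and 12.21 in TT CTL cells. The probe, at chr14:36985718-36985777 on hg19 within the gene on the minus strand, was measured on all 4 TT arrays and on none of the 4 Nthy-ori 3-1 arrays. Because a dim probe gives only an upper limit, the difference was also bounded against the lowest signal that counted as well above background on each array. NKX2-1 was thereby at least 243-fold higher in TT (log2 difference as measured 10.33, SE 0.12, limma adjusted p = 2.31e-06). This bound and those below hold for the scanner's own background correction. They are approximate, because some probes that were not marked lay above that lowest signal. On the second Nthy-ori 3-1 CTL array it was 4.39, and SCG2 at 4.62 and BMP4 at 4.66 were not marked.

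HHEX, a homeobox factor of the thyroid bud, the liver and blood precursors, was measured on all 8 arrays. Its log2 signals were 8.30 and 8.08 in Nthy-ori 3-1 CTL cells and 12.83 and 12.74 in TT CTL cells, with no overlap. The difference was 4.60 (SE 0.13, limma adjusted p = 1.51e-05), or 24.2-fold. The probe lies at chr10:94454858-94454917 on hg19.

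PAX8, the paired-box factor that NKX2-1 works with on the TG promoter, went the other way. Its log2 signals were 10.73 and 10.62 in Nthy-ori 3-1 CTL cells and 5.09 and 5.76 in TT CTL cells. PAX8 was therefore lower in TT without overlap, by 5.25 on the log2 scale or 38.2-fold (SE 0.33, limma adjusted p = 0.000224), yet its probe, at chr2:113973575-113973634 on hg19, was still well above background on all 4 TT arrays. FOXE1 (TTF-2), the forkhead factor of thyroid migration, had log2 signals of 8.80 and 8.72 in Nthy-ori 3-1 CTL cells. In TT CTL cells it had 1.96 and 1.91, not well above background on any of the 4 TT arrays. FOXE1 was at least 41.2-fold lower in TT (log2 difference as measured -6.82, SE 0.14, limma adjusted p = 5.10e-06), at chr9:100618916-100618975 on hg19. NKX2-1 and FOXE1 were thus the pair of genes measured on every array of 1 line and on no array of the other.

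TG, the hormone precursor protein, was measured on all 8 arrays and was higher in the medullary line. Its log2 signals were 4.72 and 5.02 in Nthy-ori 3-1 CTL cells and 9.13 and 9.13 in TT CTL cells. The groups lay 4.26 apart (SE 0.20, limma adjusted p = 8.06e-05), or 19.2-fold, at chr8:134147066-134147125 on hg19. The array annotation lists 1 RefSeq transcript for this probe, and a separate RefSeq list holds 13 for TG. These sources were not matched, so how many of the 13 the probe reads was not determined.

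DIO2 was also higher in TT by its brightest probe, A_23_P48740, with log2 signals of 5.33 and 5.33 in Nthy-ori 3-1 CTL cells and of 9.17 and 9.41 in TT CTL cells. The groups did not overlap, and the difference was 3.96 (SE 0.19, limma adjusted p = 7.96e-05), or 15.5-fold. A_24_P341674 gave 6.97 and 7.27 in TT CTL cells and was not well above background in Nthy-ori 3-1 CTL cells, at 3.46 and 3.72, which is at least 6.80-fold higher in TT (limma adjusted p = 0.000129). These probes, at chr14:80664340-80664399 and chr14:80669549-80669608 on hg19, each have 4 RefSeq transcripts in the array annotation. A separate RefSeq list, not matched to it, holds 6 for DIO2. A_33_P3325700, at chr14:80671968-80672027, has 2 transcripts in the annotation. It was measured on 1 of the 2 TT CTL arrays and on neither of the Nthy-ori 3-1 ones. Its difference of 1.28 did not pass (95% interval -1.46 to 4.01, limma adjusted p = 0.473). The 3 probes thus agree in direction and differ in whether they give a measured level.

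SLC5A5, the iodide transporter through which radioiodine enters thyroid cells, had log2 signals of 4.27 and 5.06 in Nthy-ori 3-1 CTL cells, of which the second was measured, and of 5.10 and 5.07 in TT CTL cells. Both TT values lay just above the higher Nthy-ori 3-1 value, and the difference of 0.42 did not pass the test (95% interval -0.35 to 1.19, limma adjusted p = 0.396). That interval allows a difference of up to 1.19 on the log2 scale in the direction of TT. TSHR was not well above background on any array, and its signals lay between 1.75 and 1.79 on 7 arrays and at 2.95 on the first antagomiR-375 array. DUOX2 was not well above background in either CTL group, with 3.89 and 3.46 in Nthy-ori 3-1 and 2.83 and 2.37 in TT, and was measured on 1 array, the second of antagomiR-375, at 3.98. For TSHR and DUOX2 no fold between the lines can be given.

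**Figure D2:**
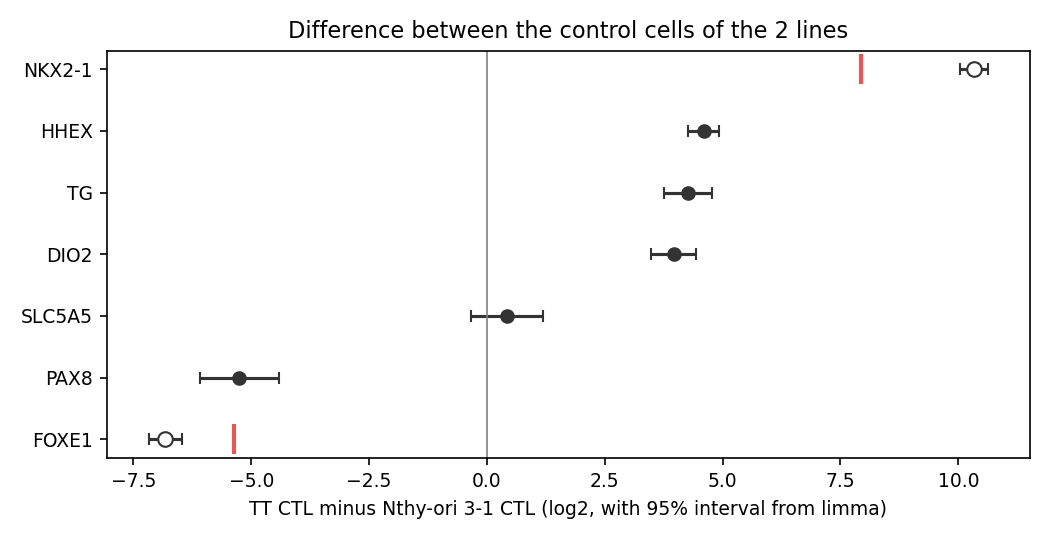
Difference in normalized log2 signal between TT CTL and Nthy-ori 3-1 CTL cells for the 7 genes measured in at least 1 of these groups, with the 95% interval from limma; hollow points have 1 line not well above background, and the red tick marks the bound of at least 243-fold for NKX2-1 and 41.2-fold for FOXE1. The 4 genes on the right and the 2 on the left have intervals clear of 0, and that of SLC5A5 includes it.

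The transfected cells showed the same split of the lines. Over all 8 arrays, the lowest TT signal of NKX2-1 was 12.13 and the highest Nthy-ori 3-1 signal 1.98. The TT signals of HHEX began at 12.46 and those of TG at 9.13, above the highest Nthy-ori 3-1 signals of 8.33 and 5.02. For PAX8, the highest TT signal was 5.76 and the lowest Nthy-ori 3-1 signal 10.31. DIO2 by A_23_P48740 kept the order with less room, its highest Nthy-ori 3-1 signal of 6.80, in pre-miR-375 cells, lying below the lowest TT signal of 9.17. By A_33_P3325700, mostly not well above background, the lines overlapped, with 2.29 to 4.25 in TT and 1.96 to 5.44 in Nthy-ori 3-1. How far the lines lay apart depended on the treatment of low signals. With a normexp background correction that adds an offset of 50, which itself shrinks differences of low signals, in place of the scanner's own, the difference was 6.43 for NKX2-1, -2.91 for FOXE1 and 2.80 for TG. Each still passed the threshold, and those of NKX2-1 and FOXE1 were smaller than the bounds above.

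Other genes of thyroid hormone synthesis, transport and action were taken from a list of 54, all of which are on the array. Between the CTL cells of the lines, 12 of the 54 were called higher and 9 lower in TT, against 14.9% and 15.3% of all probes, and the median difference of the list was -0.024. FOXA1 and FOXA2, forkhead factors of endoderm, were higher in TT by at least 178-fold and at least 29.0-fold (limma adjusted p = 7.75e-06 and 1.61e-05). ID4, an inhibitor of basic helix-loop-helix factors, and PAX2, a paired-box factor close to PAX8, were higher by at least 14.5-fold and at least 4.39-fold (limma adjusted p = 9.72e-05 and 0.000158). DIO1, the type 1 deiodinase, was at least 5.27-fold higher in TT, as DIO2 was (limma adjusted p = 0.00412). The protease CTSL, which can release hormone from thyroglobulin, was lower by 5.63 on the log2 scale (SE 0.20, limma adjusted p = 3.26e-05). The array also carries genes under the names TTF1 and TTF2, which are other genes than NKX2-1 and FOXE1.

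**Figure D3:**
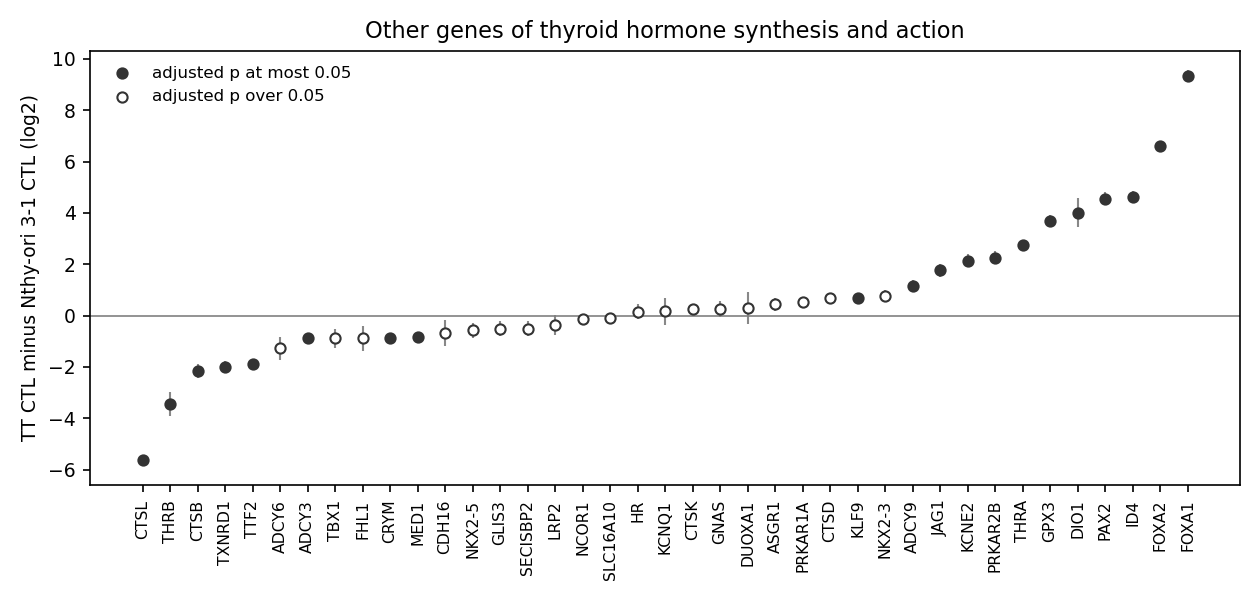
Difference in normalized log2 signal between TT CTL and Nthy-ori 3-1 CTL cells, with its SE from limma, for the 39 of 54 listed genes measured on both arrays of at least 1 of these groups; filled points had an adjusted p of at most 0.05. FOXA1 stands at the top and CTSL at the bottom.

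The second comparison asked what pre-miR-375 did to these genes in Nthy-ori 3-1. None of the 11 probes passed the test, and neither did any of the 50594 probes tested (0% called, smallest limma adjusted p = 0.318). At an unadjusted p under 0.05, 2 of the 11 probes stood out, both of DIO2 and both higher, against 14.3% of all probes in either direction and 7.08% higher. The values of the 2 groups did not overlap for 6 of the 11 probes, against 30.1% of all. The median difference over the 11 probes was 0.09.

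DIO2 by A_23_P48740 went from log2 signals of 5.33 and 5.33 in CTL cells to 6.37 and 6.80 in pre-miR-375 cells, all well above background. Both treated arrays lay above both controls, and the difference within the pairs that shared a slide was 1.05 and 1.47. The fit gave 1.26 (SE 0.17, 95% interval 0.52 to 1.99), or 2.39-fold, with a limma adjusted p of 0.318 that did not pass. A difference of 1 or more was found for 4.48% of all probes. A_24_P341674 gave 3.46 and 3.72 in CTL cells and 4.06 and 4.39 in pre-miR-375 cells, of which only the last was well above background. A_33_P3325700 gave 2.01 and 1.96 and then 5.44 and 2.60, with the first pre-miR-375 array alone well above background. All 3 probes were thus higher on both treated arrays, and only the first was measured on all 4. The size moved with the processing. It was 0.66 with the normexp correction and its offset and 0.78 in the deposited log2 values, normalized by the authors (limma adjusted p = 0.0626 and 0.0886).

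C cell markers also gave higher signals on the same arrays, none of them called. The mean log2 signal of the 11 C cell genes was 3.21 and 3.33 in CTL cells and stood at 4.42 and 4.60 with pre-miR-375, where 6 and 7 of them were well above background in place of 2. SYP, a vesicle protein, went from 1.91 and 2.11 to 5.49 and 6.15, and SCG2, a secretory granule protein, from 2.10 and 4.62 to 6.72 and 8.42. DDC, which makes amines in neuroendocrine cells, was at 1.72 and 1.71 with pre-miR-375, and the neuroendocrine factor INSM1 at 1.90 and 1.86, none well above background, whereas in TT CTL cells they were at 14.59 and 14.75 and at 12.07 and 12.20. NKX2-1, which marks TT among the genes described here, was at 1.93 and 1.94. The part of these markers in the DIO2 values was not tested.

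The measured transcription factors gave smaller differences, none past the test. FOXE1 had 8.80 and 8.72 in CTL cells and 8.54 and 8.28 in pre-miR-375 cells, lower on both treated arrays by -0.35 in the fit (95% interval -0.80 to 0.09, limma adjusted p = 0.391). PAX8 had 10.73 and 10.62 and then 10.31 and 10.45, also without overlap (difference -0.30, 95% interval -0.81 to 0.21, limma adjusted p = 0.468). HHEX had 8.30 and 8.08 and then 8.33 and 8.33, a difference of 0.14 (95% interval -0.35 to 0.62). For FOXE1 the interval leaves room for a loss of up to 0.80 on the log2 scale, and for PAX8 of up to 0.81.

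For TG, the log2 signals of 4.72 and 5.02 in CTL cells and of 4.98 and 4.51 in pre-miR-375 cells overlapped, and the pairs went in opposite directions, by 0.27 and -0.51. SLC5A5, with 4.27 and 5.06 and then 4.81 and 4.69, did the same, by 0.54 and -0.37. Their intervals, -1.35 to 1.11 for TG and -1.35 to 1.52 for SLC5A5, are wide, and each includes a change of 2-fold in either direction. NKX2-1, TSHR and DUOX2 were not well above background in either group of Nthy-ori 3-1.

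**Figure D4:**
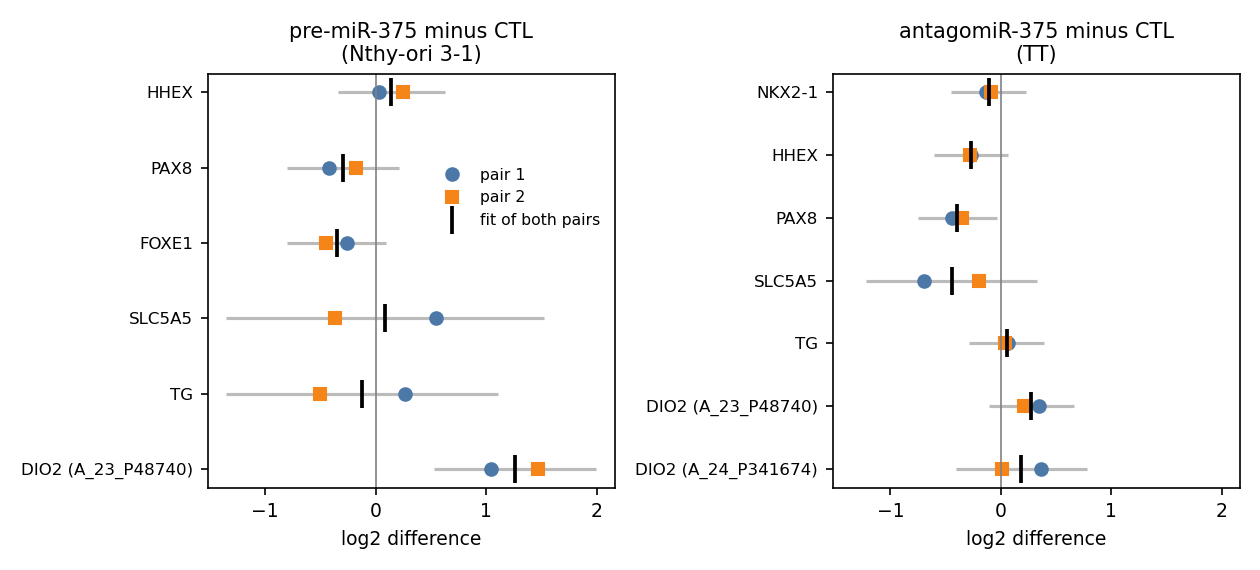
Difference in normalized log2 signal between transfected and CTL cells of the same slide (points, pair 1 and pair 2), the fitted difference (black tick) and its 95% interval from limma (grey), for the probes measured on both arrays of at least 1 group, in Nthy-ori 3-1 on the left and TT on the right. DIO2 on pre-miR-375, at 1.05 and 1.47, stands apart from the other probes, and no probe had an adjusted p of at most 0.05.

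The third comparison asked what antagomiR-375 did in TT. Again none of the 11 probes passed, and none of 50587 probes did (0% called, smallest limma adjusted p = 0.512). At an unadjusted p under 0.05 there was 1 of the 11, PAX8, against 9.73% of all probes. The groups did not overlap for 6 of the 11 probes, against 42.3% of all, and the median difference was 0.05.

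PAX8 had log2 signals of 5.09 and 5.76 in TT CTL cells and of 4.65 and 5.41 in antagomiR-375 cells. The groups overlapped, but the treated array was lower within each pair, by -0.44 and -0.35, and the fit gave -0.39 (SE 0.09, 95% interval -0.75 to -0.04, limma adjusted p = 0.512). HHEX had 12.83 and 12.74 and then 12.57 and 12.46, lower on both treated arrays by -0.27 (95% interval -0.61 to 0.06). NKX2-1 had 12.35 and 12.21 and then 12.22 and 12.13, which overlap, with a difference of -0.11 (95% interval -0.45 to 0.23). The 3 factors measured in TT were thus lower within both pairs of arrays that share a slide, by amounts that did not pass. PAX8 was by far the dimmest of them. With the normexp correction and its offset, the difference was -0.15 for PAX8, -0.30 for HHEX and -0.09 for NKX2-1.

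TG had the smallest difference of the 3 other measured genes in TT, at 9.13 and 9.13 in CTL cells and 9.20 and 9.17 in antagomiR-375 cells (difference 0.05, 95% interval -0.28 to 0.39). DIO2 by A_23_P48740 had 9.17 and 9.41 and then 9.51 and 9.61. Both treated arrays lay above both controls, and the difference was 0.27 (95% interval -0.11 to 0.66, limma adjusted p = 0.538). By A_24_P341674, also measured on all 4 TT arrays, it was 0.18 (pairs 0.36 and 0.008, 95% interval -0.41 to 0.78). A_33_P3325700, measured on 1 TT CTL array and on no antagomiR-375 array, went the other way, by -0.50 (95% interval -4.25 to 3.25). SLC5A5 had 5.10 and 5.07 and then 4.40 and 4.87, lower on both treated arrays by -0.45 (95% interval -1.22 to 0.33). FOXE1, at 2.03 and 1.99 in antagomiR-375 cells, stayed below the level that counts as measured. Of the DIO2 responses in Nthy-ori 3-1 and TT, the difference between them was not tested.

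Of the 54 other pathway genes, none was called on either transfection, as none was among all probes. On pre-miR-375, 6 were higher and 6 lower at an unadjusted p under 0.05, against 7.08% and 7.26% of all probes. The protease CTSK differed by 1.40 (SE 0.08, pairs 1.39 and 1.40) and the cadherin CDH16 by -1.09 (SE 0.39, pairs -1.62 and -0.55), with limma adjusted p of 0.318 and 0.438. On antagomiR-375, 4 were higher and 2 lower at that level, against 4.91% and 4.82%. ID4 differed by 1.93 (SE 0.13, pairs 1.78 and 2.08, limma adjusted p = 0.512).

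The genes whose signals followed those of a member most closely were sought by the distance between their 8 centred log2 values. For NKX2-1 these were ADCYAP1, TSPAN8 and NPW (distances 0.25, 0.28 and 0.36), and for FOXE1 RSPO4, XLOC_l2_004866 and CATSPER1 (0.30, 0.35 and 0.36). For HHEX they were C1orf54, PRRG2 and SATB1, and for PAX8 TCIRG1, AXL and MSRA. DLL3, NPM2 and C1orf54 lay nearest to TG, USP18, MLLT11 and ABCA3 to DIO2, and CYSLTR1, XLOC_011131 and LOC728093 to SLC5A5. The 8 arrays fall into 2 lines, so that these lists mostly hold genes with a like difference between lines, and ranking by Pearson's r instead kept 1 of the 3 for HHEX, 2 of the 3 for SLC5A5 and none for the other 5 genes.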

How the data were processed

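The authors hybridised Cy3-labelled RNA to 8 Agilent single-colour arrays and read them with Feature Extraction 10.10.1.1. The deposited scanner files hold background-corrected processed intensities on a linear scale, from which the results above were computed except where the deposited log2 values are named. Quantile normalization and limma follow the methods of the study. Dropping outlier spots, averaging the spots of a probe and normalizing the log2 values of all 8 arrays together were chosen here. The authors' deposited log2 table was normalized within each line and served as an alternative. limma 3.58.1 (R 4.3.3) was fitted with the replicate number as a block within a line, and on 4 group means between lines, with Benjamini-Hochberg adjustment over all probes and a threshold of 0.05. Arrays of the same number share a slide, and their differences between replicates correlated (r = 0.785 in Nthy-ori 3-1, 0.330 in TT). With 2 arrays against 2, an exact permutation test cannot go below p = 0.333. The code was tested on simulated data. Gene names are those of the array design, with CTSL listed as CTSL1. All probes of the 9 genes are given. Of the pathway list, up to 6 genes with the largest difference of 1 or more in each comparison are named, among those well above background on both arrays of at least 1 group. Some genes of that list are not reported here. Genes, lists and tests were chosen with earlier results of these data known. The number of arrays limits the precision.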

Additional observations from a re-analysis of the deposited data

How the results depend on the processing

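The calls on the 9 genes depended little on the processing: 0 genes were called on either transfection under every alternative run, and 6 between the lines, or 7 in the deposited log2 values. The added gene there was TSHR or DUOX2, neither measured on any CTL array, as SLC5A5 passed in no setting (lowest limma adjusted p = 0.081). Those values called 22914 of all 50599 probes. Of the values for single genes, 69 of 72 on pre-miR-375, 71 of 72 on antagomiR-375 and 90 of 91 between lines kept their direction and side of the threshold. The exceptions, none of them past the threshold, were TG and SLC5A5 on pre-miR-375, which ranged from -0.51 to 0.27 and from -0.37 to 0.54 when 1 pair of arrays was left out, TG at 9.16e-05 in the deposited values, DIO2 on antagomiR-375 at -0.014 as a mean over its 3 probes, and SLC5A5 between lines at -0.15 in the deposited values. The cause was not tested, other than that the left-out pairs differ in sign. With no replicate block, 0 genes were called on either transfection, and DIO2 on pre-miR-375 kept its 1.26 at a limma adjusted p of 0.411; the block changed no other call. Its adjusted p ranged from 0.0519 (dim probes left out) to 0.583 (75th percentile scaling). Over all probes, pre-miR-375 gave 1560 calls with the normexp correction, 569 in the deposited values and 999 with dim probes left out, against 0. Between lines, the deposited values gave 22914 calls, 5605 of them higher in TT, against 15244 and 7514, with a median over all probes of -0.31. The slide as a random block gave 15246. The differences between lines ranged from 6.43 to 10.40 for NKX2-1, from -6.93 to -2.91 for FOXE1 and from 2.73 to 4.41 for TG. Signal near background limits NKX2-1 and FOXE1 to bounds, and leaves TSHR and DUOX2 without a level.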
